A study of Mus musculus with 8 samples.

Results

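The genes described here encode the glycosyltransferases of the secretory pathway, the enzymes that build the sugar chains of cell surface and secreted proteins and lipids. They were chosen by symbol. The choice took the numbered genes of the GALNT, B4GALT, B3GNT, ST3GAL, ST6GAL, ST6GALNAC, ST8SIA, MGAT, FUT and GCNT families together with C1galt1, Eogt, Pofut1, Pofut2 and Poglut1, and gave 78 of the 40840 genes in the tables. O-GlcNAc transferase (OGT), the enzyme inhibited in the experiment, was not among them.

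RNA-seq was performed on primary stellate cells of the mouse liver after myofibroblastic activation (pMF-HSCs), the matrix-producing form that the vitamin A-storing pericytes of the liver take on in culture. Cells came from WT C57BL/6J males aged 15 to 18 weeks, were sorted by retinol autofluorescence after a density gradient and were cultured for 7 days in medium with serum. They then received for 24 h either DMSO (control, n = 4) or OSMI-1 at 50 µM, a small-molecule OGT inhibitor (OGTi, n = 4). The 4 replicates were independent experiments, each with a control and an OGTi culture, so that p-values measure the spread between these 4 pairs. The results are those of cultured cells under a single inhibitor, dose and time, and the libraries measured mRNA, not enzymes or glycans.

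Glycans are built stepwise in the endoplasmic reticulum (ER) and Golgi, each transferase moving a sugar from a nucleotide donor such as UDP-GlcNAc, UDP-galactose or CMP-sialic acid onto a protein, a lipid or a growing chain. OGT works apart from this line, in the nucleus and cytoplasm, but draws on the same UDP-GlcNAc as the MGAT, B3GNT and GCNT enzymes and EOGT. In stellate cells and other fibroblasts, integrins, growth factor receptors, fibronectin and proteoglycans carry the finished chains.

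Libraries held between 30068876 and 37372420 expected counts, the read counts per gene that RSEM estimates. Between 19035 and 20293 genes were detected in 7 libraries and 23746 in OGTi replicate 4. The 10 most counted genes took 6.73% to 7.76% of counts in control and 10.9% to 15.8% in OGTi. Each of the 14 stellate cell and myofibroblast markers examined reached 1 TPM (a level scaled by gene length and library) in at least 1 library, and their summed level was 4660 to 8359 TPM in control and 4003 to 9104 TPM in OGTi, with Pdgfrb, Lrat and Hgf lower in OGTi by the test described below. Markers of 8 genes each summed to 1.52 to 3.14 TPM in control and 0.32 to 1.32 TPM in OGTi for endothelial cells, and to 0.03 to 0.63 TPM and 0.52 to 1.65 TPM for hepatocytes, with Hnf4a and Tat at 0 throughout. Tek and Lyve1 of the former list were lower in OGTi, and Cyp2e1 of the latter was higher. Macrophage markers summed to 19.2 to 40.3 TPM in control and 33.5 to 71.6 TPM in OGTi, mostly from Cd68, which was higher in OGTi. Csf1r had 2.22 to 6.66 TPM in the 8 libraries, Cd5l reached 6.21 TPM and Vsig4 2.79 TPM in control replicate 3, and Adgre1, Clec4f, Ptprc and Marco stayed below 1 TPM. Of 10 epithelial and cholangiocyte markers, which summed to 95.8 to 161 TPM in control and 57.8 to 113 TPM in OGTi, Krt19 was the highest and was lower in OGTi, whereas Sox9 was higher, with 0.42 to 1.96 TPM in control and 3.03 to 22.9 TPM in OGTi. Krt8 and Krt18 were highest in replicate 2, at 11.1 and 13.5 TPM in control and 12.3 and 14.2 TPM in OGTi, and Epcam, Cdh1, Grhl2 and Esrp1 stayed below 1 TPM. The part of other cells in the results below was not tested. In bulk libraries, fewer cells of a type and less RNA per cell cannot be told apart.

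OGTi lowered 16 glycosyltransferase genes and raised 5. The largest decreases were those of Gcnt1 (core 2 branches), St6gal1 (alpha-2,6-linked sialic acid), B4galt6 (lactosylceramide), Eogt (extracellular O-GlcNAc) and Fut10 (protein O-fucose), with log2 fold changes from -3.23 to -2.39. Gcnt1 and B4galt6 were scarcely expressed, at 0.19 and 0.22 TPM in control, and neither passed without replicate 1, 2 or 3. Over the refits described below, their log2 fold changes nearest to 0 were -0.22 and -0.24. Those of Eogt and Fut10 were -2.10 and -2.12. The largest increases were those of Mgat3 (bisecting GlcNAc) and Gcnt7, with log2 fold changes of 2.46 and 2.33. Changes were thus found from the start to the cap of a chain, and families with members moving in opposite directions were GALNT, B4GALT and GCNT.

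Of the 78 genes, 64 had a total of at least 10 counts and were tested, while 14 had a total of at most 6 counts and were not. The 2 with no count at all were B3gnt7 and Fut9. The test was edgeR's quasi-likelihood test with the replicate as a block, adjusted by Benjamini-Hochberg over all 19963 genes tested, with a threshold of 0.05. Passing genes made up 32.8% of the 64 tested (21 genes), against 18.4% of all genes. Higher genes made up 7.81% of the 64, against 8.13% of all genes, and lower genes 25.0%, against 10.2%. The share of higher genes was thus near the background and the share of lower genes above it. Counts within families, given below, rest on few genes each and are to be read against the same shares of all genes. The median log2 fold change was -0.36 over the 64 and 0.01 over all genes, and 62.5% of the 64 lay below 0, against 49.8% of all genes. Taken pair by pair, the median over the 64 had an SD of 0.30 (n = 4 pairs). Leaving out replicate 1, 2, 3 or 4 gave medians of -0.20, -0.22, -0.21 and -0.55 over the glycosyltransferase genes tested. Over all genes these were 0.01, 0.02, 0.01 and -0.05. At an unadjusted p under 0.05, 28 passed (43.8%), against 31.8% of all genes.

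The 21 genes moved the same way in all 4 pairs, and in 19 of them (90.5%) the groups did not overlap, the exceptions being St3gal5 and Fut4. The test selects for both, and among all genes that passed it 82.3% did not overlap. The size was at least 1 on the log2 scale in 17 (81.0%), near the 78.2% of all genes that passed. By level, 13 of the 21 were among the 28 genes at 10 TPM or more in control, 4 among the 15 between 1 and 10 TPM, and 4 among the 35 below 1 TPM. Those 4 were Mgat3, Gcnt7, B4galt6 and Gcnt1. The share of all genes that passed was not computed within these levels, so these counts have no background of their own. A refit kept only genes at 1 CPM in 4 libraries (CPM, counts scaled by library size). There, 18 of 46 glycosyltransferase genes passed, 6 higher and 12 lower. Of all 12476 genes in that refit, 11.9% were higher and 13.6% lower, against 8.13% and 10.2% without that filter. Refitting in 14 other ways kept the call of 11 of the 21 in every fit in which the gene was tested, namely Galnt18, Galnt7, B4galt2, B4galt5, St3gal5, St3gal6, St6gal1, Fut10, Eogt, Mgat3 and Gcnt7. Without replicate 3, 12 of the 21 still passed, and without replicate 4, 15 did.

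**Figure D1:**
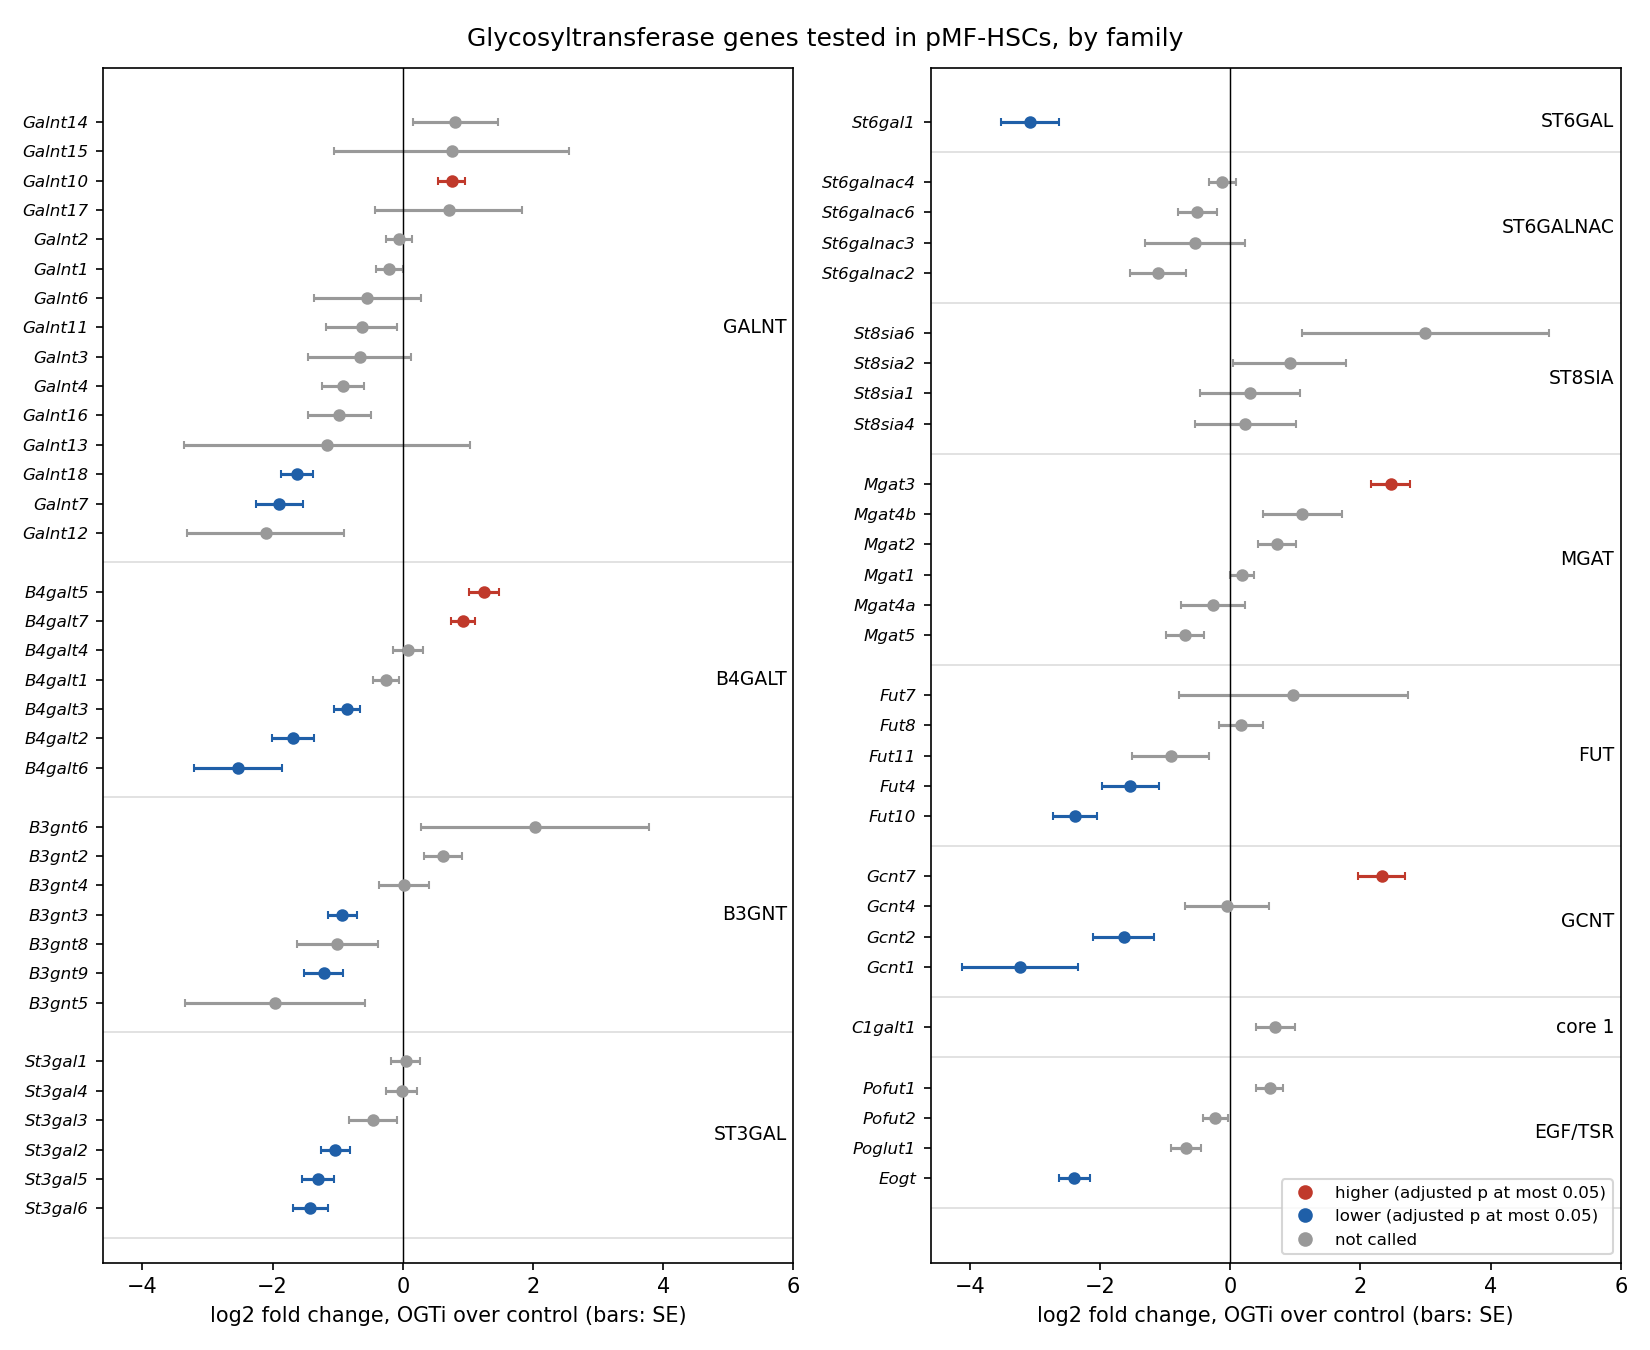
Log2 fold change of OGTi over control (horizontal axis) for the 64 glycosyltransferase genes tested, grouped by family. Points are edgeR estimates, bars are standard errors and colours mark the 5 higher, 16 lower and 43 other genes. Lower genes are found in 8 of the 12 groups, and the St6gal1, Fut10 and Eogt points lie below -2 with bars far from 0.

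**Figure D2:**
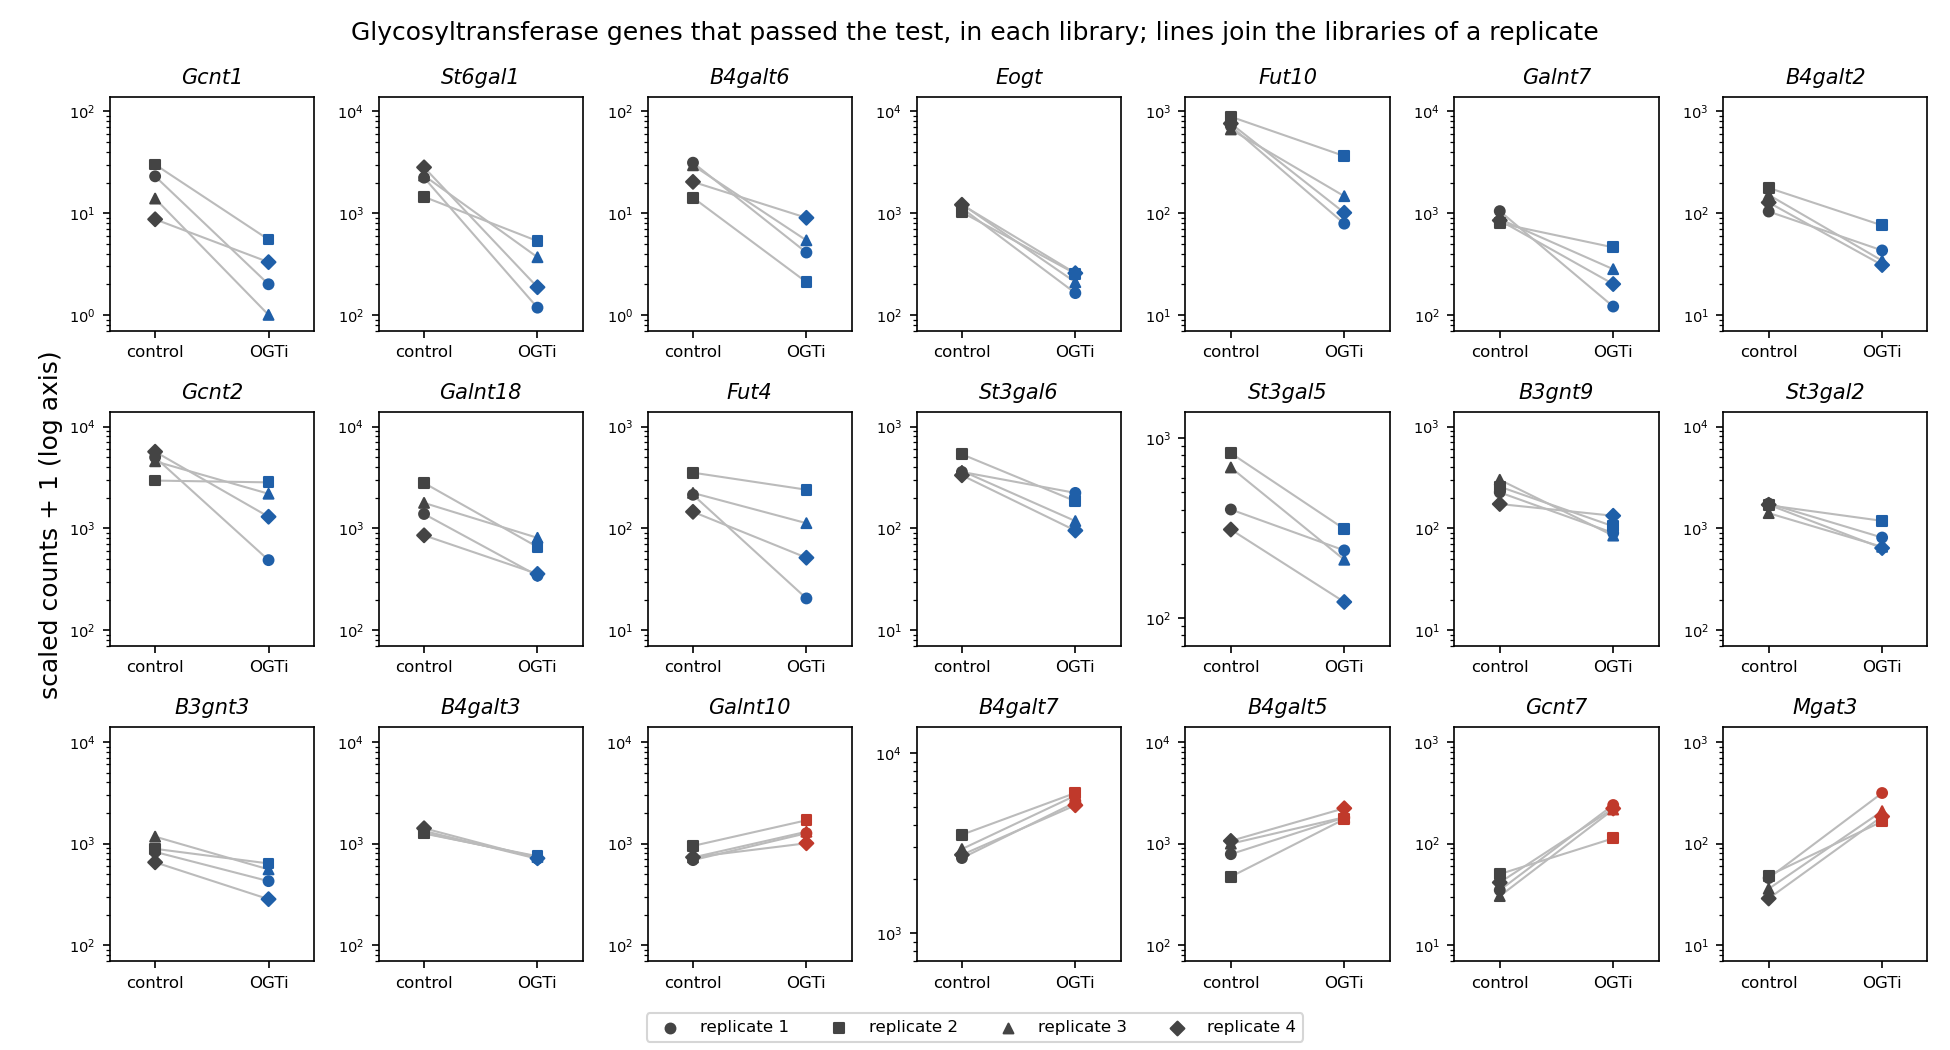
Scaled counts plus 1 (vertical log axis) of the 21 genes that passed the test in each control and OGTi library. Symbols mark the replicate and grey lines join its 2 libraries. Every line falls in the 16 lower genes and rises in the 5 higher genes, and the group ranges meet in St3gal5 and Fut4.

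Promoters of these genes were read for the core of the TEAD motif, since TEAD4 is a transcription factor central to the study, and for the E-box. The RefSeq promoter table (GRCm38.p6, 250 bases before to 50 bases after a start) held 21 promoters of 14 of the 21 genes, 4 of the higher and 10 of the lower. GGAATG, searched on both strands, was in 2 of 4 promoters of higher genes and in 2 of 17 promoters of lower genes, against 14.7% of all 32851 promoters. Some genes had several promoters, and counted by gene it was in 2 of 4 higher and 2 of 10 lower genes. The 14.7% is a share of promoters and not of genes. Median GC content was 60.8% in promoters of higher genes, 58.0% in those of lower genes and 52.7% in all promoters. CACGTG was in none of the 21 and in 7.15% of all promoters. The 4 promoters with GGAATG are shown 5′ to 3′ on the strand of the gene, with the match in capitals, because they come from genes that moved both ways. B4galt7 (chr13:55599646-55599945, plus strand) and Galnt10 (chr11:57645192-57645491, plus strand) rose, and St3gal6 (chr16:58524204-58524503, minus strand) and Gcnt1 (chr19:17339456-17339755, minus strand) fell. The match began 140, 101, 88 and 186 bases before the start, respectively, and St3gal6 and Gcnt1 had further promoters without it.
B4galt7: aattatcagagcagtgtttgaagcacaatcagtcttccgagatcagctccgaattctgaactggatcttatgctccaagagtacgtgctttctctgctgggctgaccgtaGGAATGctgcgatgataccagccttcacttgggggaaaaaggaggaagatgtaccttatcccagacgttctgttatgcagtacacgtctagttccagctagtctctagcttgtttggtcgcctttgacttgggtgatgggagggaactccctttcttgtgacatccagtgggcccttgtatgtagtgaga
Galnt10: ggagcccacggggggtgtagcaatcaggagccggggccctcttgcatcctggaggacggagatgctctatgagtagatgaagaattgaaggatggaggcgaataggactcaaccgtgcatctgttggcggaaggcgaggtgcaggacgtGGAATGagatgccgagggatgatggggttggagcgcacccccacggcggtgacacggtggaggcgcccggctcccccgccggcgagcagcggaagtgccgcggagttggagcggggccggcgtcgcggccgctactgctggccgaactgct
St3gal6: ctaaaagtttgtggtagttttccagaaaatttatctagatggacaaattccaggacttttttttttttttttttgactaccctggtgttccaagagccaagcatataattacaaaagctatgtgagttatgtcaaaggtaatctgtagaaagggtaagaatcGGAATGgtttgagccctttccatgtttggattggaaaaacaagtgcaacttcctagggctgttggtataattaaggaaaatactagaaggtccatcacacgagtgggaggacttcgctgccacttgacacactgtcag
Gcnt1: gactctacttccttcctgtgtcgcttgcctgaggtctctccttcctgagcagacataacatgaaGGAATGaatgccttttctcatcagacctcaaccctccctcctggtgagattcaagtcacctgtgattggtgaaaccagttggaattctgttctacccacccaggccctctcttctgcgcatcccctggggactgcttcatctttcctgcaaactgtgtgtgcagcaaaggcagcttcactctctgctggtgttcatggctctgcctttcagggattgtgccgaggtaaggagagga
A match describes these letters in this window and not a bound site.

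O-GalNAc glycans start with the GALNT enzymes, which attach GalNAc to serine or threonine. Of 17 genes 15 were tested, with 1 higher and 2 lower. Galnt18, the member with the highest level in control (35.9 ± 17.0 TPM, SD, n = 4), had 1384, 2792, 1779 and 854 scaled counts in control replicates 1 to 4 and 342, 656, 807 and 356 in OGTi replicates 1 to 4. Scaled counts are counts brought to a common library size by TMM factors. Every OGTi library lay below every control library, by a log2 fold change of -1.63 ± 0.25 (SE; edgeR adjusted p = 0.00211). Galnt7, which prefers substrates that already carry GalNAc, had 1046, 793, 872 and 848 in control and 120, 460, 280 and 200 in OGTi, again without overlap (log2 fold change -1.90 ± 0.36, edgeR adjusted p = 0.00545). OGTi replicate 1 was the lowest of the Galnt7 libraries.

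Galnt10, another enzyme that extends glycosylation on partly glycosylated substrates, went the other way. It had 688, 949, 730 and 734 scaled counts in control and 1264, 1695, 1308 and 1007 in OGTi, a log2 fold change of 0.75 ± 0.21 (SE; edgeR adjusted p = 0.0323). The groups did not overlap, but the call was lost without replicate 2, 3 or 4 (edgeR adjusted p = 0.0803, 0.162 and 0.0548) and with library totals as the scaling (0.105). With limma on TPM its log2 fold change was 0.39 and 0.42 with 1 and 0.1 added (adjusted p = 0.156 and 0.166). Galnt4, which overlaps Poc1b on the same strand so that its counts are uncertain, had 1115, 959, 1274 and 1360 in control and 254, 917, 856 and 690 in OGTi. Its groups did not overlap and its log2 fold change was -0.92 ± 0.32 (SE), which missed the threshold in edgeR (adjusted p = 0.0754) and passed it in DESeq2 (adjusted p = 0.0431) and in edgeR with library totals (0.0369) or without the low-count filter (0.0135).

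Core 1 and core 2 synthesis come next. C1galt1, which adds galactose to the first GalNAc, had 85.3, 110, 64.5 and 78.0 scaled counts in control and 149, 143, 164 and 91.9 in OGTi. It was higher in all 4 pairs with overlapping groups, and its log2 fold change of 0.69 ± 0.30 (SE) did not pass (edgeR adjusted p = 0.145). Gcnt1, which starts the core 2 branch, was scarcely expressed, with 22.0, 29.0, 12.9 and 7.7 in control and 1.0, 4.5, 0.0 and 2.3 in OGTi. It fell by 3.23 ± 0.89 (SE) on the log2 scale (edgeR adjusted p = 0.0304), and the call was lost without replicate 1, 2 or 3 (edgeR adjusted p = 0.114, 0.10 and 0.0899).

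Gcnt2, the I-branching enzyme, held nearly all of the GCNT transcripts in control (45.0 ± 11.6 TPM, SD, n = 4). It had 4992, 2950, 4561 and 5667 scaled counts in control and 487, 2832, 2188 and 1300 in OGTi. The OGTi library of replicate 2 came close to its control, while that of replicate 1 was the lowest. Gcnt2 fell by 1.64 ± 0.46 (SE) on the log2 scale (edgeR adjusted p = 0.0336), and it missed the threshold without replicate 1 (0.0863), without replicate 4 (0.150), without the replicate block (0.0511) and with a filter at 1 CPM in 4 libraries (0.0622). Gcnt7, related to the core 2 enzymes by sequence, rose from 33.9, 49.2, 29.5 and 40.5 in control to 239, 112, 215 and 221 in OGTi. Its groups were far apart (log2 fold change 2.33 ± 0.36, edgeR adjusted p = 0.00215), though at a level of 1.16 ± 0.24 TPM (SD, n = 4) in OGTi.

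N-glycan branching by the MGAT enzymes held 1 higher and 0 lower genes by edgeR among 6 tested of 8, with 2 higher genes and 1 lower gene at an unadjusted p under 0.05 and 1 and 0 with DESeq2. Mgat3 (chr15:80049871-80099720, GRCm39) adds the bisecting GlcNAc, a branch that blocks further branching of the chain. It had 44.9, 47.5, 35.0 and 27.9 scaled counts in control and 313, 164, 207 and 184 in OGTi, the largest increase among the 5 higher genes (log2 fold change 2.46 ± 0.30, edgeR adjusted p = 0.000772). Every OGTi library lay far above every control library. In TPM it went from 0.798 ± 0.176 to 3.88 ± 0.81 (SD, n = 4).

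Mgat1, which opens the path to hybrid and complex N-glycans, was among the most expressed of all these genes at 121.5 ± 3.87 TPM in control and 112.1 ± 24.5 TPM in OGTi (SD, n = 4). Its scaled counts were 7680, 8262, 7586 and 7710 in control and 9024, 10226, 9354 and 7177 in OGTi, with overlapping groups and a log2 fold change of 0.19 ± 0.18 (SE; edgeR adjusted p = 0.545). Fut8, which adds core fucose to N-glycans, had 773, 1123, 976 and 336 in control and 438, 1256, 931 and 906 in OGTi. Its log2 fold change was 0.17 ± 0.33 (SE; edgeR adjusted p = 0.787) and changed sign with library totals, with TPM and without replicate 4. The sign of Mgat1 also turned with library totals and TPM.

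Galactose is added in beta-1,4 linkage by the 7 B4GALT enzymes, all tested, of which 2 were higher and 3 lower. B4galt7 (chr13:55747709-55758733, GRCm39) places the galactose of the linker that joins glycosaminoglycan chains to proteoglycans. It had 2617, 3528, 2937 and 2728 scaled counts in control and 5335, 6019, 5822 and 5143 in OGTi, without overlap (log2 fold change 0.93 ± 0.19, edgeR adjusted p = 0.00785). Without replicate 3 its edgeR adjusted p was 0.0537 with a log2 fold change of 0.91. B4galt5, a lactosylceramide synthase, had 787, 472, 997 and 1063 in control and 1803, 1740, 1815 and 2225 in OGTi. The 4 OGTi libraries all lay above the highest control library (log2 fold change 1.25 ± 0.24, edgeR adjusted p = 0.00567).

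B4galt6, the other lactosylceramide synthase, moved in the opposite direction to B4galt5. It had 30.3, 13.2, 28.5 and 19.3 scaled counts in control and 3.1, 1.1, 4.4 and 8.0 in OGTi (log2 fold change -2.54 ± 0.68, edgeR adjusted p = 0.0272), and without replicate 1, 2 or 3 it did not pass (0.103, 0.0761 and 0.108). At 0.22 ± 0.078 TPM in control against 10.3 ± 3.41 TPM for B4galt5 (SD, n = 4), it made up little of the pair. B4galt2 and B4galt3, which make the N-acetyllactosamine unit of N-glycans, both fell. B4galt1, another member of the family that was named after its values were seen, did not pass (log2 fold change -0.26 ± 0.20, edgeR adjusted p = 0.421). Its groups overlapped, and replicate 4 rose from 3026 to 3327 scaled counts. At 68.6 ± 20.9 TPM in control it stood above B4galt2 and B4galt3, at 2.83 ± 0.64 and 36.4 ± 2.10 TPM (SD, n = 4). B4galt3 had 1332, 1256, 1273 and 1415 in control and 709, 750, 738 and 717 in OGTi, the most even change among these genes (log2 fold change -0.85 ± 0.21, edgeR adjusted p = 0.0171), but it missed the threshold without replicate 3 or 4 (0.0901 and 0.0723). B4galt2, which shares part of its strand with Ccdc24, had 103, 176, 150 and 126 in control and 42.0, 74.8, 33.1 and 29.9 in OGTi (log2 fold change -1.68 ± 0.32, edgeR adjusted p = 0.00578).

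The B3GNT enzymes alternate with B4GALT enzymes to lengthen poly-N-acetyllactosamine chains, and 7 of 8 were tested, with 2 lower. B3gnt3, which extends core 1, had 828, 888, 1170 and 654 scaled counts in control and 427, 638, 557 and 284 in OGTi (log2 fold change -0.93 ± 0.23, edgeR adjusted p = 0.0186). B3gnt9 had 225, 256, 299 and 173 in control and 89.1, 104, 83.9 and 132 in OGTi (log2 fold change -1.21 ± 0.30, edgeR adjusted p = 0.0191). Neither overlapped between groups. B3gnt3 missed the threshold without replicate 3 or 4 (0.112 and 0.0852) and without the block (0.0607), and B3gnt9 did without replicate 1, 2 or 3 (0.0558, 0.0652 and 0.119). B3gnt2, the main chain-lengthening enzyme, which overlaps Commd1b on the same strand, was the most expressed of the family at 24.7 ± 10.3 TPM in control (SD, n = 4) and had 892, 1976, 1169 and 851 in control and 1516, 1416, 2704 and 1630 in OGTi. Replicate 2 went against the other pairs, and the log2 fold change of 0.62 ± 0.29 (SE) passed without replicate 2 (edgeR adjusted p = 0.0323) but not with it (edgeR adjusted p = 0.174).

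Sialic acid caps the chains. Of 20 sialyltransferase genes 15 were tested, and 4 fell, while 0 rose by edgeR, at an unadjusted p under 0.05 or by DESeq2. Over all genes tested, 10.2% fell and 8.13% rose by edgeR. With 15 genes, a count of 0 higher is not far from that share. St6gal1 (chr16:23043460-23179103, GRCm39), which links sialic acid in alpha-2,6 to the galactose of N-glycans, had 2230, 1445, 2337 and 2817 scaled counts in control and 117, 530, 367 and 186 in OGTi. All OGTi libraries lay below the lowest control library, and the log2 fold change of -3.08 ± 0.45 (SE) corresponds to an 8.44-fold lower level (edgeR adjusted p = 0.00165). Its level went from 27.3 ± 7.27 to 3.12 ± 2.21 TPM (SD, n = 4). The decrease held in each of the 14 refits, with log2 fold changes between -3.59 and -2.67. St6gal2, the other enzyme of this linkage, was not tested for want of counts.

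Among the 6 ST3GAL enzymes, which link sialic acid in alpha-2,3, 3 fell. St3gal5, the GM3 ganglioside synthase, had 400, 823, 685 and 309 scaled counts in control and 237, 312, 210 and 122 in OGTi. Each pair fell although control replicate 4 lay just under OGTi replicate 2 (log2 fold change -1.30 ± 0.25, edgeR adjusted p = 0.00559). St3gal6, which acts on N-acetyllactosamine, had 358, 534, 367 and 331 in control and 222, 184, 117 and 94.2 in OGTi (log2 fold change -1.42 ± 0.27, edgeR adjusted p = 0.00580). St3gal2, which acts on core 1 and on glycolipids, had 1753, 1687, 1411 and 1706 in control and 812, 1185, 658 and 640 in OGTi (log2 fold change -1.03 ± 0.23, edgeR adjusted p = 0.0115), and missed the threshold without replicate 3 or 4 (0.0669 and 0.0624). St3gal4, the most expressed of the 6 at 27.7 ± 7.69 TPM in control (SD, n = 4), had 1374, 1693, 1753 and 968 in control and 1695, 1388, 1239 and 1295 in OGTi. Its groups overlapped, with a log2 fold change of -0.02 ± 0.23 (SE; edgeR adjusted p = 0.973) whose sign turned with the scaling.

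The ST6GALNAC enzymes, which sialylate GalNAc, and the ST8SIA enzymes, which build chains of sialic acid, held 0 calls among 4 tested genes each by edgeR and by DESeq2. At an unadjusted p under 0.05, 1 ST6GALNAC gene and 0 ST8SIA genes passed. The former, St6galnac2, was named after its values were seen and had 162.4, 137.2, 220.1 and 128.1 scaled counts in control and 199.7, 84.9, 54.1 and 28.7 in OGTi (log2 fold change -1.11 ± 0.43, edgeR adjusted p = 0.102). The groups overlapped through OGTi replicate 1, and the gene passed as lower in edgeR without replicate 1 (0.0320) and without the low-count filter (0.0195). St6galnac4, which held most ST6GALNAC transcripts, had 1333, 1753, 1439 and 1704 scaled counts in control and 1344, 1206, 1531 and 1656 in OGTi (log2 fold change -0.12 ± 0.21, edgeR adjusted p = 0.755). The groups overlapped, and its sign turned with upper-quartile scaling. The ST8SIA genes summed to 0.285 ± 0.175 TPM in control and 0.738 ± 0.963 TPM in OGTi (SD, n = 4), the lowest of the families. St8sia4, a polysialic acid synthase, had 11, 7.9, 40.5 and 48.2 in control and 8.2, 7.8, 9.9 and 363 in OGTi, so that OGTi replicate 4 stood alone. That library also had the most genes detected, and whether the 2 are related was not tested. The log2 fold change of St8sia4 was 0.23 ± 0.78 (SE; edgeR adjusted p = 0.879) with replicate 4 and -0.86 (edgeR adjusted p = 0.512) without it. With all libraries but without the replicate block it was 1.85 (edgeR adjusted p = 0.326).

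Fucose is added by 8 FUT genes, of which 5 were tested and 2 fell. Fut10 (chr8:31677216-31757307, GRCm39), which newer annotation calls Pofut3 because its product puts O-fucose on proteins in the ER, had 716, 886, 663 and 758 scaled counts in control and 77.8, 363, 146 and 99.9 in OGTi. All OGTi libraries were below the lowest control library, replicate 2 the least so (log2 fold change -2.39 ± 0.34, edgeR adjusted p = 0.00146). Fut4, an alpha-1,3-fucosyltransferase of the Lewis x structure, had 213, 352, 222 and 145 in control and 19.5, 239, 112 and 50.5 in OGTi. The groups overlapped through replicate 2, which was high in both. Fut4 fell by 1.53 ± 0.43 (SE) on the log2 scale (edgeR adjusted p = 0.0339), and missed the threshold without replicate 1, 3 or 4 (0.0541, 0.0555 and 0.114), without the block (0.228) and with a filter at 1 CPM in 4 libraries (0.0601).

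O-glycans of EGF and thrombospondin (TSR) repeats, folded units of Notch receptors and of many matrix proteins, are started in the ER. Eogt (chr6:97086886-97126143, GRCm39) encodes the transferase that adds O-GlcNAc to EGF repeats of extracellular proteins, a reaction like that of OGT but on the other side of the membrane. It had 1121, 1020, 1224 and 1208 scaled counts in control and 163, 254, 209 and 256 in OGTi. The groups were far apart and tight, with a log2 fold change of -2.39 ± 0.24 (SE), a 5.25-fold lower level, and the lowest adjusted p among the 64 genes (edgeR adjusted p = 0.000316). The level went from 11.6 ± 1.01 to 1.82 ± 0.55 TPM (SD, n = 4), and over the 14 refits the log2 fold change ranged from -2.65 to -2.10.

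The 3 other enzymes of this group did not pass in the fit used for the calls, but each did in some others. Pofut1, which adds O-fucose to EGF repeats, had 427, 531, 758 and 658 scaled counts in control and 620, 909, 1105 and 981 in OGTi. It was higher in OGTi in each pair, with overlapping groups and a log2 fold change of 0.61 ± 0.21 (SE; edgeR adjusted p = 0.0710, DESeq2 adjusted p = 0.00741), and it also passed in edgeR with upper-quartile scaling (0.0376), a filter at 1 CPM (0.0317) or the length trend removed (0.0131). Poglut1, which adds O-glucose to the same repeats, had 2048, 2132, 2654 and 2863 in control and 1084, 2087, 1623 and 1389 in OGTi (log2 fold change -0.68 ± 0.23, edgeR adjusted p = 0.0706, DESeq2 adjusted p = 0.0423), and it also passed with library totals (0.0316), with limma on TPM (0.0344 and 0.0300 with 1 and 0.1 added) and without replicate 2 (0.0475). Pofut2, which adds O-fucose to TSR repeats, was the most expressed of the 78 genes in control at 145.3 ± 11.1 TPM (SD, n = 4). Its scaled counts were 5851, 6373, 6577 and 5725 in control and 6144, 4857, 4734 and 5304 in OGTi, with overlapping groups (log2 fold change -0.23 ± 0.19, edgeR adjusted p = 0.472), and it passed with limma on TPM (adjusted p = 0.0335 and 0.0361 with 1 and 0.1 added).

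Family totals were compared as sums of TPM. GALNT genes summed to 126.4 ± 33.7 TPM in control and 70.0 ± 23.2 TPM in OGTi, ST3GAL genes to 82.9 ± 13.7 and 45.6 ± 8.49 TPM, and GCNT genes to 45.7 ± 11.5 and 15.3 ± 9.34 TPM (SD, n = 4). The GALNT sums overlapped between groups, while those of ST3GAL and GCNT did not. B4GALT genes summed to 212.2 ± 25.6 and 210.5 ± 32.8 TPM and MGAT genes to 151.7 ± 22.3 and 149.1 ± 26.5 TPM, both with overlapping groups. TPM are shares of a fixed total, and the median gene of the whole table differed by -0.10 between OGTi and control on the log2(TPM + 1) scale and by -0.235 with 0.1 added. The highest members of GALNT, B4GALT, ST3GAL and MGAT shifted more. From edgeR to log2(TPM + 1), Galnt18 went from -1.63 to -1.83, B4galt7 from 0.93 to 0.59, St3gal4 from -0.02 to -0.53 and Mgat1 from 0.19 to -0.14. For these genes TPM put OGTi lower than scaled counts did.

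The make-up within a family does not depend on the library total. In the FUT family Fut8 held 39.0% ± 6.36 of the summed TPM in control and 71.5% ± 7.10 in OGTi, while Fut10 went from 36.1% ± 14.7 to 10.9% ± 3.6 (SD, n = 4). In the B4GALT family B4galt7 held 35.7% ± 4.52 and 54.5% ± 1.17. Within GALNT, Galnt18 led in control with 27.2% ± 6.17, against 13% ± 3.44 in OGTi, and Galnt10 went from 8.90% ± 2.25 to 21.7% ± 4.15. These shares did not overlap between the groups. No test was run on them, and a share rises where other members fall.

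**Figure D3:**
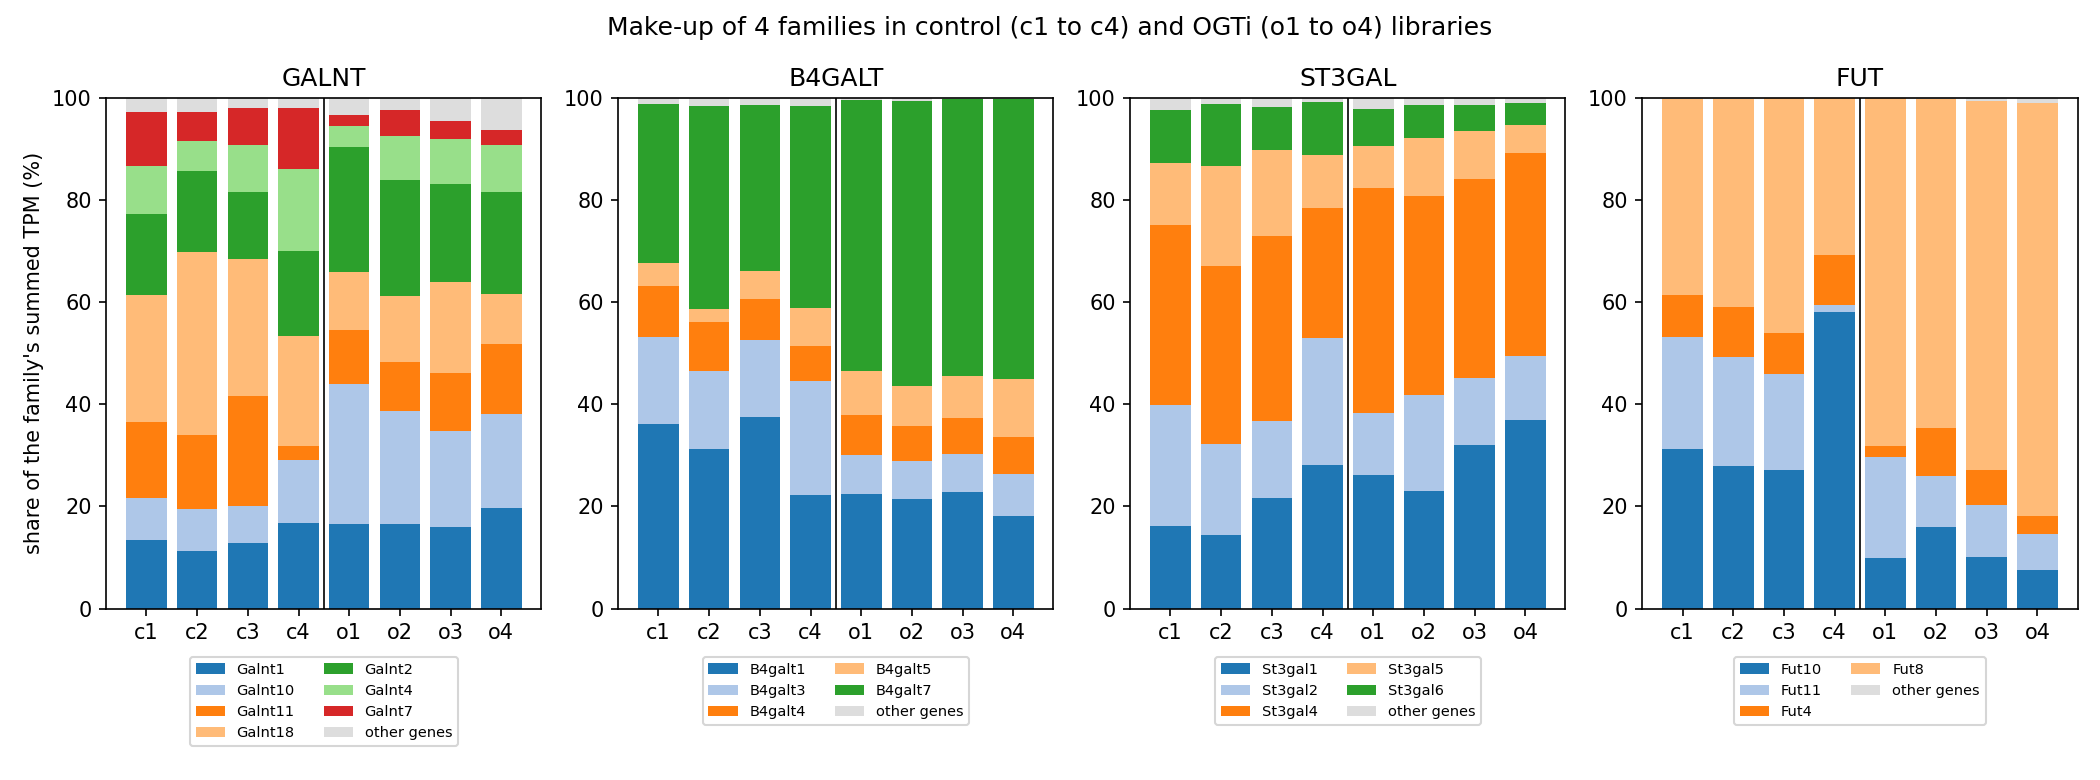
Share of each family's summed TPM (vertical axis, %) held by its genes in every control (c1 to c4) and OGTi (o1 to o4) library, for GALNT, B4GALT, ST3GAL and FUT; grey marks the remaining genes. The parts of B4galt7, Fut8 and Galnt10 are larger, and those of Galnt18, B4galt3 and Fut10 smaller, in each OGTi library than in each control library.

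Some genes turned on 1 library. They were singled out after their values were seen. Galnt11, an O-GalNAc initiating enzyme, had 877, 1192, 1507 and 122 scaled counts in control and 333, 526, 543 and 519 in OGTi. Fut11, also known as Pofut4, had 518, 688, 470 and 19.3 in control and 152, 229, 155 and 96.5 in OGTi. In both genes control replicate 4 was far below the other controls and replicate 4 was the only pair higher in OGTi. With all libraries neither passed (edgeR adjusted p = 0.472 and 0.327), and without replicate 4 both did, with log2 fold changes of -1.34 and -1.64 (edgeR adjusted p = 0.0152 and 0.00998). Galnt14 was also low in control replicate 4, with 19.3 against 106 to 208 in the other controls.

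Mgat4b, which adds a branch to N-glycans, was uneven in both groups, with 110, 833, 138 and 14.5 scaled counts in control and 707, 313, 262 and 70.1 in OGTi. Replicate 4 was the lowest of each group and replicate 2 the only pair lower in OGTi. The log2 fold change was 1.11 ± 0.61 (SE; edgeR adjusted p = 0.243) with all libraries and 1.96 (edgeR adjusted p = 0.0150) without replicate 2, and the gene also passed without the low-count filter (0.0372). Over the 14 refits the log2 fold change ranged from 0.30 to 1.96.

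**Figure D4:**
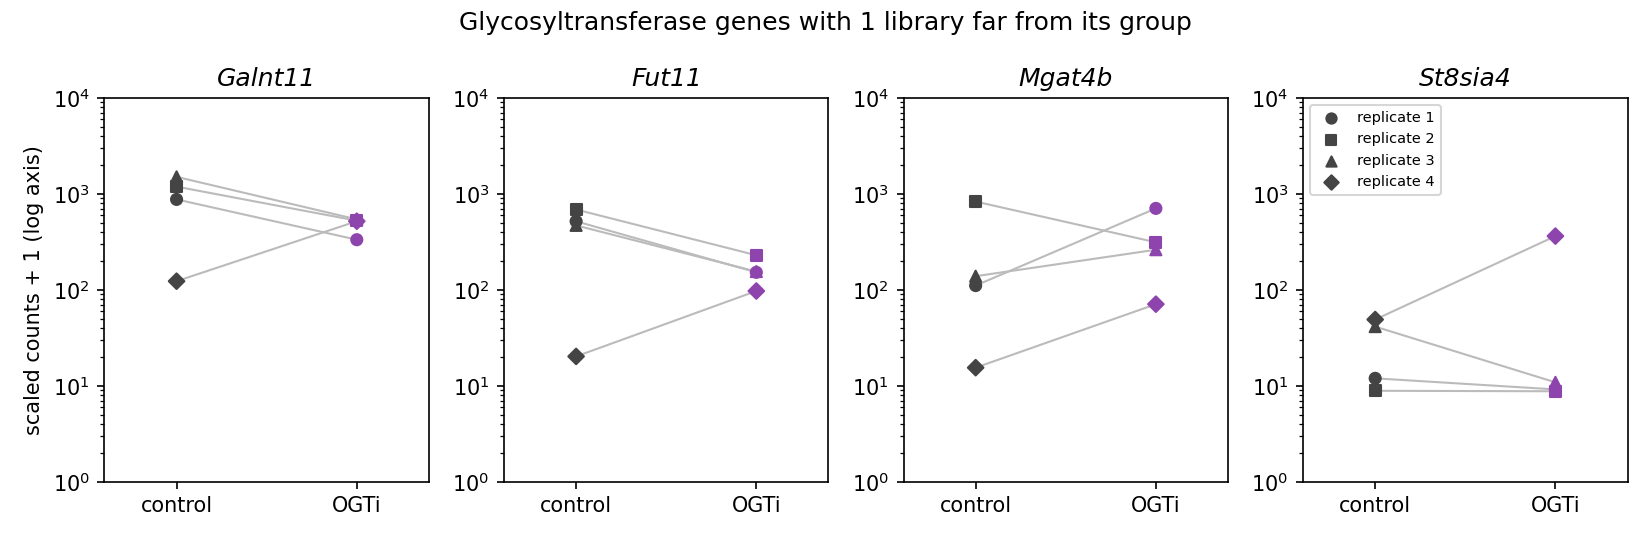
Scaled counts plus 1 (vertical log axis) of Galnt11, Fut11, Mgat4b and St8sia4 in each control and OGTi library, with symbols for the replicate and lines joining its libraries. Control replicate 4 lies far below the other controls in Galnt11 and Fut11, and OGTi replicate 4 far above the other OGTi libraries in St8sia4.

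Around these enzymes, 92 further genes of glycan synthesis were followed in 7 lists, of which 87 were tested, 7 rose and 9 fell. Sugar nucleotide supply had 2 higher and 3 lower genes of 19, Golgi and ER sugar transporters 1 lower gene of 9, and oligosaccharyltransferase and N-glycan trimming 1 higher and 1 lower of 17. The shares of the 87 were 8.05% higher and 10.3% lower, near the 8.13% and 10.2% of all genes. The lower share depended on the fit, at 20.7% against 14.6% of all genes with library totals, 27.6% against 17.3% with limma on TPM (1 added) and 16.1% against 12.4% with DESeq2, and at 4.6% against 5.52% without replicate 3 and 4.65% against 5.67% without replicate 4. The higher share was 2.3% against 5.99% with limma on TPM (1 added). Cmas, which activates sialic acid to CMP-sialic acid, rose from 172 ± 38.0 to 371.5 ± 92.6 scaled counts (SD, n = 4; log2 fold change 1.10 ± 0.23, edgeR adjusted p = 0.00925). Gmds, which starts GDP-fucose synthesis, rose from 849 ± 287 to 1626 ± 164 (SD, n = 4; log2 fold change 1.01 ± 0.25, edgeR adjusted p = 0.0207). Without replicate 3 neither passed (0.0504 for Cmas and 0.0874 for Gmds), and Gmds did not without replicate 4 (0.0847) or with limma on TPM (0.0771 and 0.0734 with 1 and 0.1 added). The 3 lower genes of sugar nucleotide supply were named after their values were seen. Ugdh, which makes UDP-glucuronic acid, fell from 32640 ± 2830 to 17010 ± 1924 scaled counts (SD, n = 4; log2 fold change -0.94 ± 0.18, edgeR adjusted p = 0.00597) and passed in all 14 refits. Gmppb, which makes GDP-mannose, fell from 1095 ± 94.8 to 554.6 ± 53.5 scaled counts (SD, n = 4; log2 fold change -0.98 ± 0.22, edgeR adjusted p = 0.0121), but did not pass without replicate 3 or 4 (0.0925 and 0.05001). Pmm1, a phosphomannomutase, fell from 3705 ± 618 to 2224 ± 684 scaled counts (SD, n = 4; log2 fold change -0.78 ± 0.22, edgeR adjusted p = 0.0373), but did not pass without the block (0.0720), with upper-quartile scaling (0.0850) or without replicate 2, 3 or 4 (0.117, 0.152 and 0.142).

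B4galnt2, which caps alpha-2,3-sialylated chains with GalNAc, had 19.3, 36.1, 3.7 and 11.6 scaled counts in control and 91.1, 86.0, 61.8 and 67.8 in OGTi (log2 fold change 2.38 ± 0.48, edgeR adjusted p = 0.00734). Neu2, a cytosolic sialidase, had no count in control and 1.0, 0.0, 28.7 and 80.4 in OGTi. It passed with edgeR (adjusted p = 0.0101), but not with DESeq2 (0.231), with limma on TPM (0.151 and 0.101 with 1 and 0.1 added) or without replicate 4 (0.136). Ganab, the catalytic subunit of ER glucosidase II, had 6862, 5954, 8277 and 8873 in control and 1702, 4158, 3377 and 3980 in OGTi (log2 fold change -1.24 ± 0.25, edgeR adjusted p = 0.00787). For B4galnt2 and Ganab the groups did not overlap.

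Xxylt1, which extends the O-glucose glycan that Poglut1 starts, had 320, 311, 376 and 198 scaled counts in control and 127, 235, 110 and 86.1 in OGTi (log2 fold change -1.17 ± 0.29, edgeR adjusted p = 0.0181). Ggta1, which makes the alpha-gal epitope, had 1592, 1944, 2159 and 1042 in control and 308, 1101, 1143 and 762 in OGTi (log2 fold change -1.12 ± 0.31, edgeR adjusted p = 0.0322). In both the groups overlapped while every pair fell. Xxylt1 did not pass without replicate 1, 3 or 4 (0.0538, 0.115 and 0.0700), nor Ggta1 without replicate 2 or 3 (0.0771 and 0.0823) or with a filter at 1 CPM in 4 libraries (0.0563), and both missed the threshold without the block (0.0537 and 0.0947).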

How the data were processed

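The authors sequenced polyadenylated RNA of 8 libraries in paired-end mode, mapped reads to mm39 with Bowtie2 2.3.5.1 and counted them with RSEM 1.3.1 using strand. The deposited expected counts are the read numbers that RSEM estimates per gene, without normalization. The deposited TPM are scaled by the authors' RSEM run for gene length and for a fixed library total. A further deposited table holds the authors' own comparison from DESeq2 1.36.0 and was not used, and the number of unused columns of sample values was 0. Transcript names in the tables are RefSeq ones, although the study's methods cite GENCODE. Paralogs can share reads that RSEM divides, although a fractional count was found in 5 of the 78 genes.

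Groups and replicate numbers came from the sample titles. Expected counts were rounded, genes with a total of at least 10 counts were kept (19963 of 40840), libraries were scaled by TMM, and edgeR 4.0.16 in R 4.3.3 fitted a quasi-likelihood model that tested treatment beside a block for the replicate (Benjamini-Hochberg over all genes, threshold 0.05). The block follows the paired design in the study's methods. Deviations from group means correlated at 0.160, 0.224, 0.105 and 0.318 within replicates 1 to 4 and between -0.312 and 0.208 across replicates. The SE is the log2 fold change divided by the root of F. The script was tested on simulated data. Depth was at least 30068876 expected counts, and the biological coefficient of variation between cultures was 0.342. DESeq2 1.42.0, limma 3.58.1 on TPM and other scalings and filters were alternatives.

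The genes and lists were chosen with earlier results of these data known. The text names every gene that passed, the highest gene of each family in control, C1galt1, Eogt, Pofut1, Pofut2 and Poglut1, every gene that passed without the block or with DESeq2, and up to 4 related genes in each direction. A related gene that this rule names is not reported here. Gene positions are from the GENCODE annotation of GRCm39, and promoter sequences from RefSeq (GRCm38.p6).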

Additional observations from a re-analysis of the deposited data

Results flagged for a closer look

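In 6 of 76 groups of 4 libraries examined among the named genes, the highest or lowest library stood apart by Dixon's 95% criterion, where chance gives about 3.8. Of the genes examined, 6 had been named after their values were seen, and without them the count was 3 of 64 groups, where chance gives about 3.2. St8sia4 in OGTi replicate 4 had 363.0 scaled counts, against 7.8 to 9.9 in the other OGTi libraries, and St8sia1 had 79.3 there, against 3.4 to 10.2. B4galt5 had 2224.9 in the same library, against 1739.9 to 1815.2, so that 3 of the 6 fell in OGTi replicate 4, the library with the most genes detected. OGTi replicate 3 gave B3gnt2 a value of 2703.5, where the other 3 gave 1416.0 to 1629.9. Galnt11 had 332.8 in OGTi replicate 1, against 519.2 to 542.9, and Mgat4b had 832.8 in control replicate 2, against 14.5 to 138.1. The causes were not tested.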

How the results depend on the processing

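The median log2 fold change of the tested glycosyltransferase genes stayed below 0 in the 14 refits, between -0.56 and -0.10, and numbers of higher and lower genes stayed within 1.5 times of 5 and 16 in the refits of all 8 libraries. The median of all genes lay between -0.235 and 0.14 in these refits, above that of the glycosyltransferase genes in each. Leaving out replicate 1, 2, 3 or 4 in turn gave 3 to 7 higher and 9 to 14 lower genes, both lowest without replicate 3, where 6 libraries remained. A threshold of 0.01 left 8 lower genes, and a log2 size of at least 1 left 3 higher genes. The scaling moved the median of all genes from 0.01 to 0.13 with upper quartiles and to -0.19 with library totals, and directions near 0 turned with it. Gcnt1 and B4galt6 rested on few counts, with control means of 17.9 and 22.8.

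For the related genes, the 7 higher became 4 with library totals, 2 and 2 with limma on TPM (1 or 0.1 added), 2 at a threshold of 0.01, 4 at a log2 size of at least 1, and 2 to 10 when a replicate was left out. The 9 lower became 14 with DESeq2, 18 with library totals, 14 without the low-count filter, 24 and 25 with limma on TPM, 3 at 0.01, 4 at a log2 size of at least 1, and 4 to 9 when a replicate was left out. Over all genes, leaving out a replicate gave 843 to 1433 higher and 1062 to 1744 lower genes, a threshold of 0.01 gave 751 and 917, and limma on TPM gave 3456 and 3473 lower genes. The causes were not tested, beyond the fewer libraries and stricter thresholds.

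Of the named genes that did not pass, these changed sign in a refit, B4galt1 not being among those examined. St3gal4 had log2 fold changes of 0.031 with DESeq2, 0.031 with RLE scaling, 0.11 with upper quartiles, 0.052 among genes at 1 CPM in 4 libraries and 0.13 with the length trend removed, and from -0.15 to 0.15 when a replicate was left out. St6galnac4 had 0.0075 with upper quartiles, 0.13 with the length trend removed and -0.19 to 0.047 with a replicate left out. St8sia1 ranged from -0.57 to 0.81 and St8sia4 from -0.86 to 1.10 with a replicate left out, the lowest without replicate 4. Mgat1 had -0.0096 with library totals and -0.14 and -0.14 with limma on TPM. Fut8 had -0.026 with library totals, -0.13 and -0.14 with limma on TPM, and -0.23 to 0.50 with a replicate left out.

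Without the replicate block, 5 higher and 13 lower glycosyltransferase genes passed, the pairing thus adding B3gnt3, Fut4 and Gcnt2, and the related genes gave 5 and 6.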
